A study of Homo sapiens with 8 samples.

Results

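Solute carriers are membrane proteins that move ions, sugars, amino acids, metals, vitamins and metabolites across the plasma membrane and the membranes of organelles. Of 9245 mRNA entries measured in SK-BR-3 cells, 147 belonged to this superfamily by name. They were taken by symbol alone (SLC, a family number, the letter A and a member number, or SLCO and a number), a rule that uses no measured value, though the superfamily was picked with earlier results of these data known. Of these entries, 145 were SLC genes and 2 were SLCO genes, which encode organic anion transporting polypeptides. The pattern also took 5 genes that encode no transporter: the scaffold proteins SLC9A3R1 and SLC9A3R2, the transcription factor SLC2A4RG, the adaptor SLC4A1AP, and SLC7A6OS, named for lying opposite SLC7A6. The remaining 142 entries covered 41 families, the largest being the mitochondrial carriers of family SLC25 with 30 entries. Another 16 genes named SLC35B to SLC35F, nucleotide sugar carriers and their relatives, lie outside the pattern.

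The cells, SK-BR-3, are an established line grown from a human breast carcinoma, of luminal type and with an amplified ERBB2 gene. The 8 libraries formed 4 groups: unedited wild type, knockout of mir-141, knockout of mir-200c, and knockout of both (double knockout), the knockouts having been made with TALENs, designed nucleases that cut a chosen site. The groups each held 2 libraries, 1 from either experimental set. Each knockout library came from a single clone: number 23 (mir-141), 11 (mir-200c) and 55 (double) in set 1, and 10, 29 and 61 in set 2. No age, drug treatment or time course was involved, and all cells shared the same parental line. A clone's own history and the loss of its microRNA cannot be told apart within a set.

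Every deposited value is a log2 ratio between a clone and the wild-type library sharing its set, so the 3 clones of a set share 1 wild type. A ratio of 1 is a doubling and −1 a halving. Levels were not among these values, so the depth behind each ratio is unknown, genes could not be ranked by abundance, and the identity of the line could not be checked by level. Ratios were present for 11 of 11 genes typical of a luminal ERBB2-amplified line, for 1 of 7 fibroblast genes and for 3 of 7 blood cell genes. Triples of values below give the mir-141 knockout first, then the mir-200c and then the double knockout. ERBB2 itself stood at −0.18, −0.14 and −0.14 in set 1. Ratios of all entries had SDs of 0.31, 0.43 and 0.40 in set 1 and of 0.40, 0.36 and 0.46 in set 2.

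The 2 sets did not order the genes alike. Between the clones of set 1 and set 2 with the same genotype, Pearson correlations across the 147 solute carrier genes were 0.067, 0.061 and 0.037, against 0.010, 0.011 and 0.0022 across all entries. Spearman correlations across the members were 0.050, 0.095 and 0.040. Genes are not independent replicates, and these values describe the libraries. Set 1 is described first and in most detail, and set 2 is given, as listed beside a gene's name, for some genes only. A gene shown without its set 2 values can have another sign there. Whether each row refers to 1 gene throughout was not tested.

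MicroRNAs pair through their seed, bases 2 to 8 from the 5′ end, with matching sites mostly in the 3′ UTR of an mRNA, and usually lower that mRNA and its translation. The mir-200 family is known for holding epithelial cells in their state by repressing inducers of the mesenchymal state. Solute carriers are not the family's textbook targets, but some are known as luminal, metabolic or stress-responsive genes. The 2 microRNAs removed here lie close together on chromosome 12 (GRCh38.p14, plus strand, 6964155 to 6964176 for mir-141-3p and 6963742 to 6963764 for mir-200c-3p). Their mature sequences from RefSeq are shown with the seed in capitals, because the search for sites in the solute carrier genes rests on them.
hsa-miR-141-3p: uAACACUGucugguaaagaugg
hsa-miR-200c-3p: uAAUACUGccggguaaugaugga

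Few solute carrier genes lay beyond 2-fold in set 1. In the mir-141 knockout, 0 of the 147 were above a log2 ratio of 1, where 0.584% of all entries were, and 2 were below −1 (1.36%), against 0.562% of all entries. The mir-200c knockout had 2 above 1 (1.36%, all entries 1.7%) and 3 below −1 (2.04%, all entries 1.06%). In the double knockout 1 was above (0.68%, all entries 1.53%) and 1 below (0.68%, all entries 0.746%). These counts rest on 6 different genes, SLC16A5, SLC1A3, SLC2A10, SLC37A2, SLC17A5 and SLC12A4. As a share, 4.08% of solute carrier genes and 4.27% of all entries passed 2-fold in at least 1 clone of set 1, so the superfamily stood near the background. Set 1 holds 1 library per group, and no test was run within it.

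SLC16A5 encodes MCT6, a plasma membrane carrier of the monocarboxylate transporter family (GENCODE 29 on GRCh38, chromosome 17, 75087727 to 75106162, plus strand). Its log2 ratios in set 1 were 0.00 without mir-141, −1.90 without mir-200c and −0.44 without both. As listed for set 2 it had 0.44, −1.24 and −0.59. Both mir-200c clones and both double knockout clones therefore lay below their wild type, the single mir-200c knockouts lowest, while the mir-141 clones lay near or above it. No other solute carrier gene was past 2-fold in the same direction in both clones of a genotype. Across all entries, 571 ratios of set 1 were past 2-fold, and 6 of these were past it in the same direction in the matching clone of set 2. The mean of both mir-200c clones was −1.57 ± 0.22 (SE of the limma fit, 2 clones), first of all 9245 entries when ordered by unadjusted p (limma, 0.000224). It did not pass the correction for all entries (limma, adjusted p = 0.793). Across both backgrounds, loss of mir-200c gave −1.15 ± 0.21 (limma, adjusted p = 0.541). The 10 measured genes nearest to SLC16A5, 5 on each side, had medians of 0.01, 0.00 and −0.10 in set 1. Its longest annotated 3′ UTR holds no seed match for either microRNA.

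SLC1A3 encodes the glial-type glutamate transporter EAAT1 (chromosome 5, 36606355 to 36688334). It had −1.38 and −1.16 in the single knockouts of set 1 but −0.15 in the double knockout. The clone lacking both microRNAs thus sat near the wild type, while both single knockouts lay past 2-fold below it. In set 2 it was listed at 0.05, 0.01 and 0.15, with no clone near a 2-fold change. SLC2A10, which encodes the glucose transporter GLUT10 (chromosome 20, 46709487 to 46736347), had −0.57, −1.19 and −0.97 in set 1, while set 2 listed 0.21, −0.04 and 0.09. All 3 clones of set 1 were low, and its 10 nearest measured genes had medians of −0.27, −0.13 and −0.17. SLC37A2, a sugar phosphate exchanger of the endoplasmic reticulum (chromosome 11, 125063067 to 125090312), had −1.03, −0.71 and −1.24 in set 1. It was listed at −0.08, 0.32 and −0.28 in set 2. Its neighbours had medians of 0.02, 0.00 and −0.26, so those of the double knockout lay below 0 as well. The part of neighbouring genes in these ratios was not tested.

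SLC17A5 encodes sialin, which exports sialic acid from lysosomes (chromosome 6, 73593379 to 73654155). It was the highest solute carrier gene of every set 1 clone, with 0.94, 1.57 and 1.18. In set 2 it was listed at 0.21, −0.10 and −0.22. Its 10 neighbours had medians of 0.07, 0.42 and 0.05, so those of the mir-200c knockout lay above 0. SLC12A4 encodes the potassium-chloride cotransporter KCC1 (chromosome 16, 67943474 to 67969601) and had 0.44, 1.13 and 0.85 in set 1, against −0.17, −0.20 and −0.05 as listed for set 2. Its exons overlap those of LCAT in the annotation, and the sources used here do not say whether reads were assigned by strand. SLC17A5, SLC12A4, SLC2A10 and SLC37A2 each lay on 1 side of 0 in the 3 set 1 clones, whose ratios share a wild-type library, and that library and the knockouts cannot be told apart here.

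**Figure D1:**
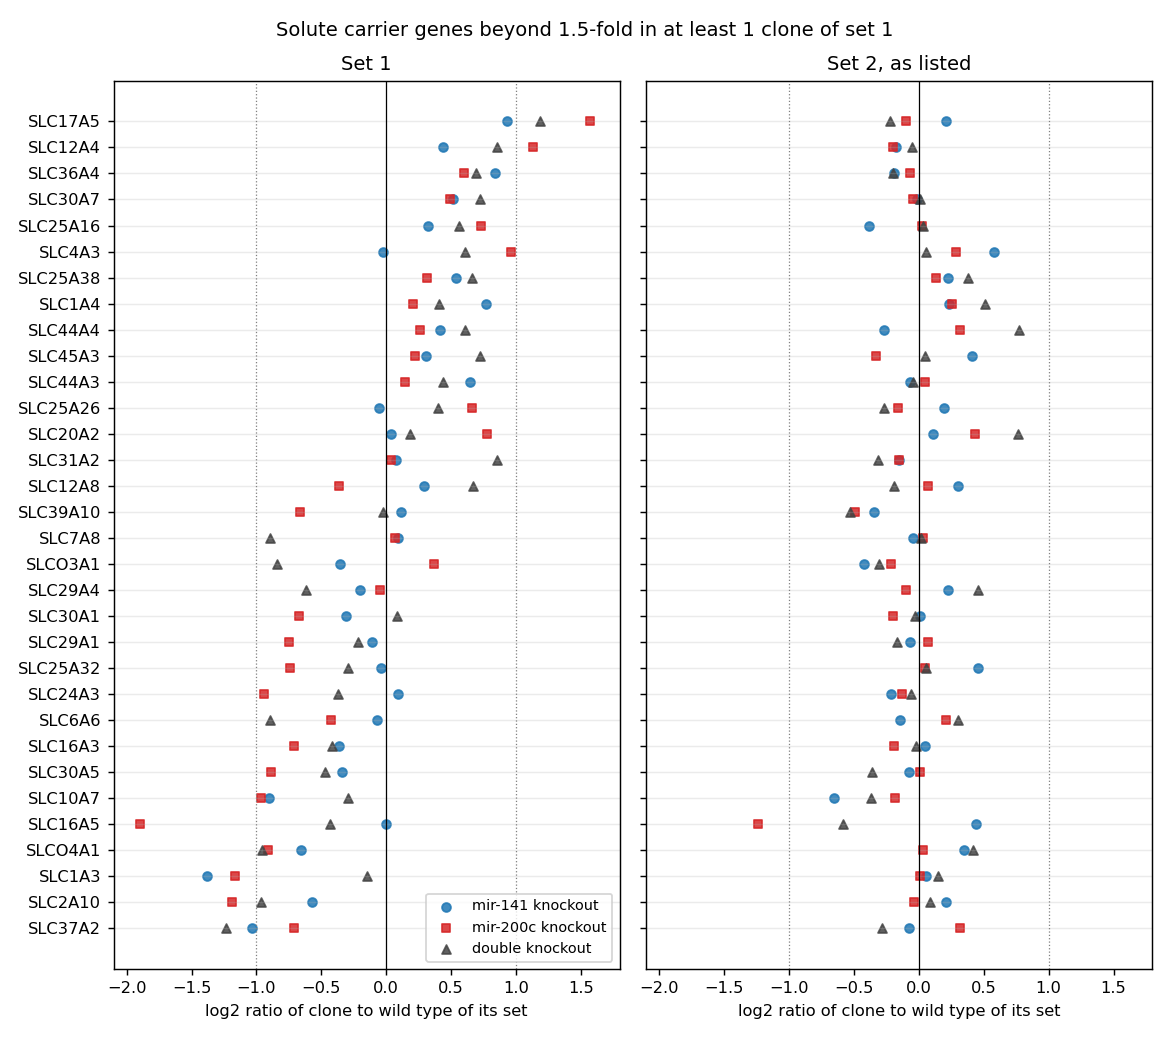
Log2 ratio to the wild type that shares a clone's set (x axis) for the 32 solute carrier genes beyond 1.5-fold in at least 1 clone of set 1, ordered by their mean over set 1. Points are single clones, left for set 1 and right for set 2 as listed. Dotted lines mark a log2 ratio of 1 and −1, and SLC16A5 alone lies below −1 in the mir-200c knockout of both panels.

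At 1.5-fold, a milder mark, 32 solute carrier genes (21.8%, all entries 17.1%) were past the line in at least 1 clone of set 1. In the mir-141 knockout 4 were higher (2.72%, all entries 2.34%) and 4 lower (2.72%, all entries 1.84%). In the mir-200c knockout 7 were higher (4.76%, all entries 6.78%) and 13 lower (8.84%, all entries 5.3%). The double knockout had 10 higher (6.8%, all entries 5.54%) and 7 lower (4.76%, all entries 3.26%). Of the 45 such ratios, 21 (46.7%) had the same sign in the matching clone of set 2, and 50.7% did over all entries. The median over all 147 genes was 0.0064, −0.074 and −0.068 in set 1, beside −0.0084, −0.017 and −0.027 over all entries. Below 0 lay 72, 88 and 84 of the 147 genes (49%, 59.9% and 57.1%), beside 51.9%, 52% and 53.7% of all entries. As listed for set 2, 44.9%, 46.9% and 51.7% of the members lay below 0. The SDs of the members, 0.30, 0.435 and 0.38, were close to those of all entries.

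Carriers of amino acids and peptides numbered 21 and had medians of −0.016, −0.033 and −0.10 in set 1. The heavy chain SLC3A2, which partners the SLC7 light chains at the cell surface, had 0.01, 0.00 and −0.04. Its best-known partner in tumour cells, the leucine transporter SLC7A5 (LAT1), had −0.23, −0.43 and −0.15, and the related SLC7A8 (LAT2) had 0.09, 0.07 and −0.89. LAT2 was therefore low in the double knockout alone, and in set 2 it was listed at −0.04, 0.03 and 0.01. SLC1A5, the glutamine transporter ASCT2, had −0.02, −0.52 and −0.27, and its relative SLC1A4 (ASCT1) had 0.77, 0.21 and 0.41.

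The sodium-coupled amino acid transporters SLC38A1 and SLC38A2 are next to each other on chromosome 12. SLC38A1 had −0.28, −0.24 and −0.39 in set 1, with −0.23, −0.42 and −0.51 listed for set 2, below 0 in 6 of 6 clones. One sign in all 6 was no rarity, at 16.3% of the members and 17% of all entries. SLC38A2 had −0.13, −0.29 and −0.25 in set 1, whereas set 2 listed 0.17, 0.13 and −0.09. The 10 genes around SLC38A1 had medians of −0.096, −0.23 and −0.081 in set 1. SLC36A4, an amino acid transporter of the proton-assisted family, was high in all clones of set 1 (0.84, 0.60 and 0.69) and was listed at −0.19, −0.07 and −0.20 in set 2. SLC6A6, the taurine transporter, had −0.07, −0.43 and −0.90 in set 1, with the double knockout lowest, and −0.15, 0.21 and 0.30 in set 2.

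Groups were made by family number, so a family named for sugars can hold other carriers. The sugar carrier families had 14 genes, among them the multivitamin transporter SLC5A6 and the monocarboxylate transporter SLC5A8, with medians of 0.0051, −0.10 and −0.11 in set 1. SLC2A1, the main glucose importer GLUT1, had 0.14, −0.19 and −0.03, within 1.5-fold of the wild type in every clone, and was listed at 0.16, 0.02 and −0.18 in set 2. SLC2A6 had −0.38, 0.24 and 0.23 in set 1, with 0.88, 0.56 and 1.26 listed for set 2. SLC45A3 (prostein) had 0.31, 0.22 and 0.73, highest in the double knockout. Among the 4 carriers of family SLC16, which move lactate and other monocarboxylates, SLC16A3 (MCT4, the lactate exporter of glycolytic cells) had −0.37, −0.71 and −0.42. SLC16A6 had 0.28, 0.06 and 0.20 in set 1, with 0.60, 0.34 and 0.65 listed for set 2, above 0 in 6 of 6 clones.

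The 30 mitochondrial carriers had medians of 0.029, −0.14 and −0.087 in set 1, and 20 of 30 (66.7%) lay below 0 in the mir-200c knockout, where 52% of all entries did. In the mir-200c clone of set 2, 15 were listed below 0 and 15 above. Beyond 1.5-fold in either direction were 0 of the 30 without mir-141, 3 without mir-200c and 1 without both, beside 4.18%, 12.1% and 8.79% of all entries. SLC25A5, an adenine nucleotide translocase that exchanges ADP for ATP, had −0.02, −0.21 and −0.25 (0.71, 0.34 and 0.48 as listed for set 2). The citrate carrier SLC25A1 had 0.13, −0.32 and −0.19. The phosphate carrier SLC25A3 had 0.09, 0.20 and 0.10. SLC25A32, the mitochondrial folate carrier, was low in the mir-200c knockout of set 1 (−0.04, −0.74 and −0.29). SLC25A26, which imports S-adenosylmethionine, was high there (−0.06, 0.66 and 0.40). As listed for set 2 they had 0.45, 0.05 and 0.05, and 0.19, −0.16 and −0.27. SLC25A38, the glycine carrier needed for haem synthesis, had 0.54, 0.31 and 0.66 in set 1, with 0.22, 0.13 and 0.37 listed for set 2, above 0 in 6 of 6 clones. The oxoglutarate carrier SLC25A11 was below 0 in all of them, with −0.17, −0.36 and −0.43 in set 1, with −0.25, −0.35 and −0.37 listed for set 2.

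Zinc is exported from the cytosol by SLC30 and brought into it by SLC39 carriers, of which 5 and 10 were measured. Their medians in set 1 were 0.038, −0.028 and 0.064 for SLC30 and 0.059, −0.028 and −0.012 for SLC39. SLC39A6 (LIV-1), known as an oestrogen-regulated luminal gene, had 0.06, −0.04 and 0.13. SLC30A1, the plasma membrane zinc exporter, had −0.31, −0.67 and 0.08. SLC30A5 (−0.34, −0.89 and −0.47) and SLC30A7 (0.52, 0.49 and 0.73), which load zinc into the secretory pathway, lay on opposite sides of 0 in all clones of set 1. SLC39A10 had 0.12, −0.66 and −0.02, low in the mir-200c knockout only, and was listed at −0.35, −0.49 and −0.53 in set 2. Of the other metal carriers, the iron exporter SLC40A1 (ferroportin) had −0.25, −0.39 and −0.50, and the copper carrier SLC31A2 had 0.07, 0.04 and 0.86. As listed for set 2 they had −0.17, −0.23 and 0.11, and −0.15, −0.15 and −0.32.

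Carriers of inorganic ions numbered 17 and had medians of 0.052, −0.028 and 0.10 in set 1. All 4 members of the cation-chloride family SLC12 lay above 0 in the mir-141 and the double knockout, and 3 of 4 did in the mir-200c knockout. Set 2 listed the reverse in part, with 2 of 4 above 0 without mir-141, 1 of 4 without mir-200c and 0 of 4 without both. SLC12A2 (NKCC1), which loads cells with chloride, had 0.22, 0.26 and 0.15 (−0.07, −0.38 and −0.35 as listed for set 2), and SLC12A8 had 0.29, −0.36 and 0.67. The anion exchanger SLC4A3 (AE3) had −0.02, 0.96 and 0.61 in set 1, high in the clones without mir-200c. Set 2 listed 0.58, 0.29 and 0.06, with the mir-141 clone highest and the double knockout lowest. The sodium-proton exchanger SLC9A2 had −0.24, −0.39 and −0.41 in set 1, with −0.32, −0.47 and −0.50 listed for set 2. The phosphate carriers SLC20A1 and SLC20A2 had 0.28, −0.22 and −0.01, and 0.04, 0.78 and 0.18. SLC24A3, a calcium exchanger, had 0.09, −0.94 and −0.37.

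Carriers of nucleosides and of nucleotide sugars, 9 in all, had medians of −0.13, −0.13 and −0.38 in set 1, and 8, 6 and 7 of the 9 lay below 0 (88.9%, 66.7% and 77.8%, beside 51.9%, 52% and 53.7% of all entries). The nucleoside transporters SLC29A1 (ENT1) and SLC29A2 (ENT2) had −0.11, −0.75 and −0.21, and −0.26, −0.47 and −0.54. As listed for set 2 they had −0.07, 0.07 and −0.17, and 0.18, 0.33 and 0.53. SLC35A3, which brings UDP-N-acetylglucosamine into the Golgi, had −0.13, −0.38 and −0.56 in set 1, with −0.27, −0.20 and −0.11 listed for set 2. In set 2 as listed the 9 had medians of 0.098, 0.026 and −0.066. The 16 relatives outside the naming pattern had medians of 0.025, 0.15 and 0.12 in set 1, so they did not share the low values.

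Vitamin, choline and cofactor carriers, 14 in number, had medians of −0.039, 0.0006 and 0.034. The reduced folate carrier SLC19A1 had −0.06, −0.17 and 0.16, and the choline transporter-like genes SLC44A3 and SLC44A4 had 0.65, 0.14 and 0.43, and 0.42, 0.26 and 0.61. Among 8 carriers of organic ions and drugs, both OATP genes were low in the double knockout. SLCO4A1 had −0.66, −0.91 and −0.96 in set 1, with 0.35, 0.03 and 0.41 listed for set 2. SLCO3A1 had −0.35, 0.37 and −0.84 in set 1, with −0.42, −0.22 and −0.31 listed for set 2. SLC10A7, a relative of the bile acid transporters, had −0.90, −0.96 and −0.30 in set 1, with −0.65, −0.18 and −0.37 listed for set 2, below 0 in 6 of 6 clones. The 3 fatty acid carriers of family SLC27 had medians of 0.0064, −0.029 and −0.10.

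**Figure D2:**
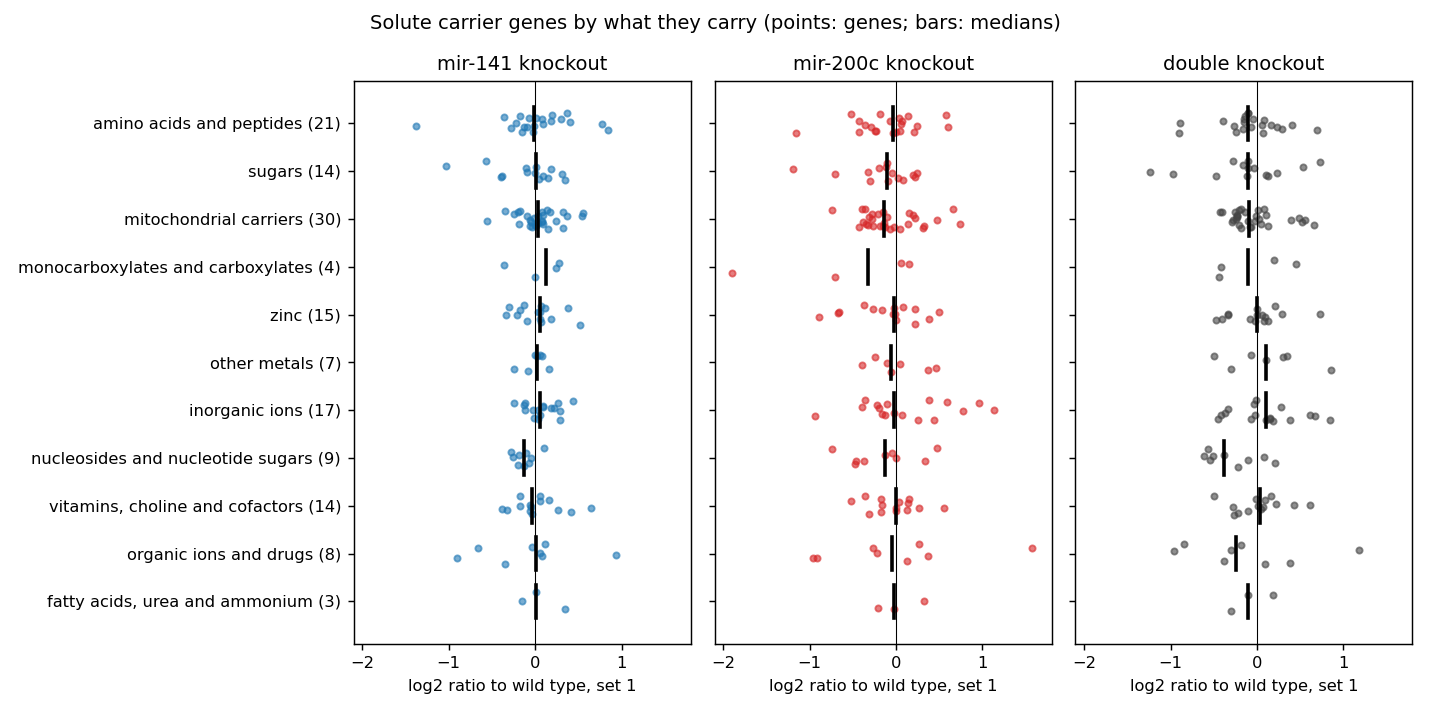
Log2 ratio to the wild type in the 3 clones of set 1 (x axis) for solute carrier genes grouped by what they carry, with the number of genes in brackets. Points are genes and bars are medians, and the carriers of nucleosides and nucleotide sugars had the lowest median of the double knockout (−0.38).

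The scaffold SLC9A3R1 (NHERF1), which holds transporters at the apical membrane, had −0.01, −0.43 and −0.21 in set 1, with 0.17, 0.23 and 0.17 listed for set 2. SLC9A3R2 had −0.16, −0.08 and −0.22. SLC7A6OS had −0.30, 0.15 and −0.10, and its exons overlap those of SLC7A6, which had −0.02, −0.07 and −0.07. SLC2A4RG had 0.05, −0.03 and 0.02 in set 1, while set 2 listed −1.01, −1.20 and −0.88. SLC4A1AP had −0.12, −0.09 and −0.24 in set 1, with 0.21, 0.07 and 1.19 listed for set 2. In all, 39 of the 147 genes have exons that overlap another protein-coding gene in the annotation.

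In set 2 as listed, 2 solute carrier genes lay beyond 2-fold in either direction in the mir-141 knockout (1.36%, all entries 2.48%), 3 without mir-200c (2.04%, all entries 1.77%) and 3 without both (2.04%, all entries 3.34%). SLC2A4RG in the mir-141 and mir-200c knockouts and SLC4A1AP in the double knockout were among these, though they encode no transporter. The most extreme was SLC26A11, a sulfate transporter, at −4.10 in the mir-200c clone against 0.17 and 0.12 in the other clones of that set. In set 1 it had 0.18, 0.44 and 0.27. SLC25A46, a mitochondrial outer membrane protein of the carrier family, was listed at 1.71 in the mir-141 clone of set 2 and had −0.04 in that of set 1. Of 9 ratios past 2-fold in set 1, 4 (44.4%) had the same sign in the matching clone of set 2, beside 48.5% over all entries. Over all 6 clones 12 solute carrier genes (8.16%) were above 0 throughout and 12 (8.16%) below 0 throughout, beside 6.65% and 10.4% of all entries.

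Loss of each microRNA can be read from 2 contrasts of set 1 that share no library. For mir-200c these are the mir-200c knockout against wild type and the double against the mir-141 knockout. Across the 147 genes these contrasts had a Pearson correlation of 0.24 (Spearman 0.33) and the same sign in 95 genes (64.6%), against 0.34 (0.35) and 63.0% over all entries. The same contrasts of set 2, as listed, had 0.256 (0.30) and 56.5% in the members, against 0.293 (0.272) and 59.6% over all entries. SLC4A3 was, in set 1, the 1 solute carrier gene above 0.5 in both (0.96 and 0.63), or 0.68%, where 1.89% of all entries were. None of the 147 was below −0.5 in both, where 0.541% of all entries were. Past a log2 of 1 in both, in either direction, were 0 solute carrier genes and 0.206% of all entries.

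Ranked by the weaker contrast, SLC25A26 (0.66 and 0.45), SLC12A4 (1.13 and 0.41), the calcium-regulated ATP-magnesium carrier SLC25A25 (0.48 and 0.39) and the carnitine transporter SLC22A5 (0.26 and 0.32) followed SLC4A3. At the low end stood SLC24A3 (−0.94 and −0.46), SLC16A5 (−1.90 and −0.43), SLC6A6 (−0.43 and −0.83), SLC2A10 (−1.19 and −0.39) and SLC35A3 (−0.38 and −0.43). SLC1A3 went the opposite way in its 2 contrasts, with −1.16 and 1.23.

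For mir-141, the contrasts are the mir-141 knockout against wild type and the double against the mir-200c knockout. Here the Pearson correlation across the 147 genes was 0.031 (Spearman 0.18), with the same sign in 88 (59.9%), against 0.18 (0.084) and 51.8% over all entries. The same contrasts of set 2, as listed, had 0.237 (0.305) and 62.6% in the members, against 0.235 (0.241) and 59.7% over all entries. SLC37A2 was, in set 1, the 1 solute carrier gene below −0.5 in both (−1.03 and −0.53), or 0.68%, where 0.627% of all entries were. None was above 0.5 in both, where 1.07% of all entries were, and none was past 1 in both, where 0.27% were. The highest by the weaker contrast were SLC44A4 (0.42 and 0.35), SLC25A38 (0.54 and 0.35), SLC45A3 (0.31 and 0.51), SLC12A8 (0.29 and 1.03) and SLC44A3 (0.65 and 0.29). The lowest after SLC37A2 were SLCO3A1 (−0.35 and −1.21), the Golgi carrier SLC35A5 (−0.28 and −0.51), SLC25A30 (−0.55 and −0.25) and SLC7A6OS (−0.30 and −0.25).

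**Figure D3:**
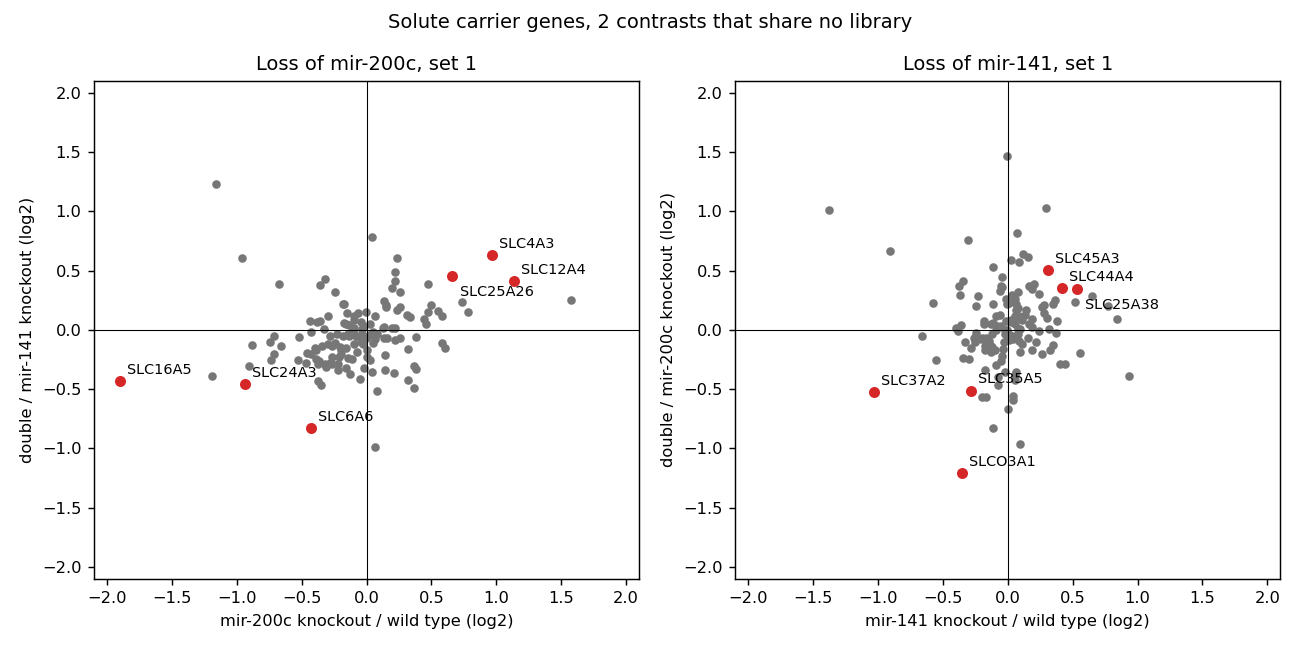
Loss of mir-200c (left) and of mir-141 (right) in set 1, each from 2 contrasts of different libraries (log2 ratios on both axes). Points are the 147 solute carrier genes, and the 3 highest and 3 lowest by the weaker contrast are red and named; SLC4A3 stands at 0.96 and 0.63 on the left and SLC37A2 at −1.03 and −0.53 on the right.

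Over both sets, limma fitted to all entries called 0 of 9245 at an adjusted p under 0.05 (0%) for the mir-141 knockout, the mir-200c knockout, the double knockout, the loss of mir-141 and the loss of mir-200c, and so 0 of the 147 solute carrier genes. At an unadjusted p under 0.05, limma had 248, 499, 581, 476 and 821 of the 9245 entries in this order. Of the 147 solute carrier genes, 4, 2, 6, 9 and 3 were among them with a positive mean and 2, 9, 6, 2 and 11 with a negative one. The entries as a whole were not split by sign, so these counts by direction have no background beside them. After SLC16A5, the smallest unadjusted p values of loss of mir-200c among the members were those of SLC25A43 (−0.38 ± 0.11, SE), the iron carrier SLC25A28 (−0.33 ± 0.09) and SLC20A2 (0.50 ± 0.15), each with an adjusted p of 0.541 in limma. For loss of mir-141, SLC25A38 had 0.34 ± 0.10 and SLC37A2 −0.56 ± 0.17 (limma, adjusted p = 0.901 for both). The interaction of both losses called 0 entries (smallest adjusted p 1, 157 at an unadjusted p under 0.05 in limma), but 1 without the mir-200c clone of set 1 (SLC26A11, 4.09) and 1 without the wild type of set 2 (WDR20, −5.29). These errors rest on the spread between sets, so they depend on each row naming 1 gene throughout. Errors of the 2 losses also take in any departure from a sum of both losses.

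A site was counted where the longest annotated 3′ UTR held the reverse complement of a seed (CAGTGTT for mir-141-3p, CAGTATT for mir-200c-3p) or its last 6 bases followed by A (AGTGTTA and AGTATTA), on the transcript strand only. All 147 genes had an annotated 3′ UTR. Sites of mir-141-3p only were present in 27 (18.4%), of mir-200c-3p only in 17 (11.6%), of both in 16 (10.9%) and of neither in 87 (59.2%). Over the 9207 entries with a 3′ UTR these shares were 14.6%, 12.8%, 11.3% and 61.2%. The UTRs differed in length between classes, with medians of 1018 bases for members with neither site and 3637 for members with both. A match describes the sequence and does not show that the microRNA acts there.

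In set 1, members with sites of mir-200c-3p only had medians of −0.072, −0.14 and −0.14, beside 0.010, −0.049 and −0.075 for members with neither. Members with sites of mir-141-3p only had −0.022, −0.028 and −0.0071, and those with both had 0.087, −0.077 and −0.011. Over all entries, genes with both sites had 0.00090, 0.019 and 0.038 and genes with neither −0.011, −0.026 and −0.048. Solute carrier genes with mir-200c-3p sites alone thus had a lower median than those without sites in the mir-200c knockout, whereas over all entries the median with such sites was higher (−0.0010 against −0.026). The members with such sites were also lower in the mir-141 knockout (−0.072 against 0.010). In the mir-200c clone of set 2, as listed, their median was 0.0092, against 0.033 for members with neither. Of the 6 genes past 2-fold in set 1, SLC2A10 alone holds a site, for mir-200c-3p, and its ratios were below 0 in set 1.

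The sites below were chosen to show the member with 8-base sites of both microRNAs (SLC30A7), the 2-fold gene with a site (SLC2A10), and 3 of the 7 members with at least 3 sites of 1 microRNA (SLC30A1 and SLC38A1 for mir-141-3p, SLC4A7 for mir-200c-3p). Each line gives the transcript strand from GENCODE 29 with the seed match in capitals and 8 bases on each side, and 1 site is shown per gene and microRNA.
SLC30A7, mir-141-3p: tgtttataCAGTGTTAgactgatg
SLC30A7, mir-200c-3p: cacaaaacCAGTATTActtttttt
SLC2A10, mir-200c-3p: catctctgCAGTATTtataagaa
SLC30A1, mir-141-3p: ttttccccCAGTGTTAtactttat
SLC38A1, mir-141-3p: aggaggcaCAGTGTTgttgatct
SLC4A7, mir-200c-3p: tctatgatCAGTATTActttatta

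SLC30A7, with 2 sites of mir-141-3p and 1 of mir-200c-3p, was high in all clones of set 1 (0.52, 0.49 and 0.73) and near 0 as listed for set 2 (−0.01, −0.04 and 0.01). SLC30A1, with 4 sites of mir-141-3p, had −0.31 in the mir-141 knockout and 0.08 in the double knockout. SLC38A1, with 3 sites of mir-141-3p, had −0.28 and −0.39 there. SLC4A7, a sodium bicarbonate cotransporter with 3 sites of mir-200c-3p, had −0.19 without mir-200c and −0.33 without both in set 1, where set 2 listed 0.18 and 0.00. The inositol transporter SLC5A3 holds the most sites, 5 for each microRNA in a 3′ UTR of 8907 bases, and had −0.11, −0.33 and −0.11 in set 1, with 0.61, 0.14 and 0.38 listed for set 2. Of these 6 genes, only SLC30A7 was above 0 in every clone of set 1.

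**Figure D4:**
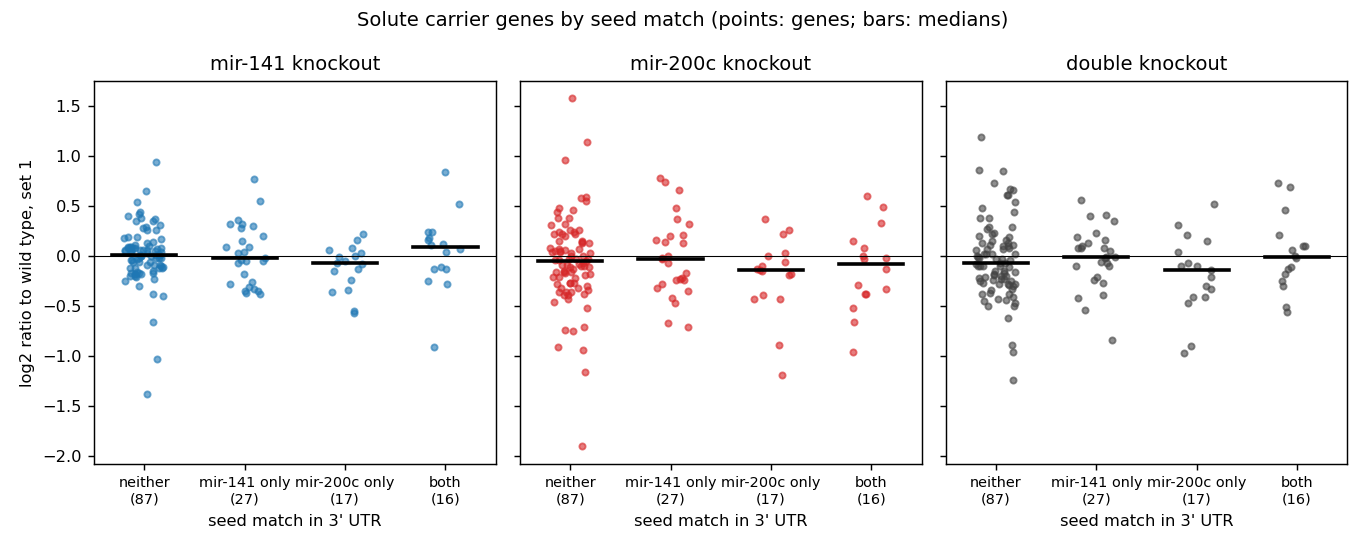
Log2 ratio to the wild type in the 3 clones of set 1 (y axis) for solute carrier genes by seed match in the longest annotated 3′ UTR, with the number of genes in brackets. Points are genes and bars are medians; the genes past 2-fold lie among those with neither match except SLC2A10 (−1.19 in the mir-200c knockout).

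Genes that work with solute carriers or respond to what they carry were read from lists of known genes, with 0 of their members called by limma in any comparison. Partner proteins and pumps were measured for 7 of 13 genes. BSG (basigin), the chaperone of the monocarboxylate transporters, had 0.09, 0.05 and 0.09 in set 1. NEDD4L, a ubiquitin ligase that removes transporters from the membrane, had 0.83, 0.71 and 0.90, the highest of this list, and 0.11, 0.13 and 0.12 in set 2. Amino acid response genes (11 of 15 measured) had medians of −0.039, 0.12 and 0.043, with ASNS at 0.11, 0.13 and 0.04.

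Metal response genes (9 of 10 measured) had medians of 0.37, −0.020 and 0.14. The lowest was the metallothionein MT1F (−1.08, −1.27 and −0.74), which set 2 listed at −0.08, 0.44 and 0.39. Other metallothioneins were MT2A (0.67, −0.16 and 0.05), MT1X (0.56, 0.56 and 0.27) and MT1G (0.38, 0.09 and 0.67). The zinc-sensing factor MTF1 had −0.26, −0.54 and −0.52. Genes of glycolysis and hypoxia (14 of 16 measured) had medians of −0.052, −0.28 and −0.11, with 10 of 14 (71.4%) below 0 in the mir-200c knockout, where 52% of all entries were. Set 2 listed them the other way, with 12, 12 and 11 of 14 above 0 and medians of 0.17, 0.097 and 0.12. There 14.3%, 14.3% and 21.4% lay below 0, beside 54.2%, 52.1% and 54.1% of all entries. Lowest of the 14 in the mir-200c knockout of set 1 were HK2, a hexokinase (−0.48, −0.68 and −0.29), and PDK1, which restrains pyruvate entry into mitochondria (−0.32, −0.68 and −0.47). Of the 4 above 0 there, ADM was highest, with −0.26, 0.86 and 1.09 in set 1 (0.26, 0.04 and 0.06 as listed for set 2). As listed for set 2, HK2 had 0.54, 0.41 and 0.11 and PDK1 0.03, 0.08 and 0.12. NRF2 targets (7 of 8 measured) had medians of −0.034, −0.30 and −0.20 in set 1, with 0.193, −0.075 and 0.195 listed for set 2. ABC transporters, the ATP-driven pumps, had medians of −0.060, −0.078 and −0.024 over 23 genes, and the MFSD genes −0.033, −0.0011 and 0.10 over 11. MFSD7 was the lowest of the latter in the mir-200c knockout, with −0.25, −1.91 and 0.27. The highest ABC gene of the mir-200c knockout was ABCC11, with 0.43, 1.19 and 1.00 in set 1. As listed for set 2, ABCC11 had −0.47, −0.23 and −0.59.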

How the data were processed

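Messenger RNA was selected with oligo(dT) beads and read on an Illumina HiSeq, per the labels' protocols. TopHat2 and the build GRCh37.p10 were used, per the submitters' processing notes. The counter, the scaling and any filter on low values are not given in the sources used here or in the file header. The authors deposited log2 ratios between each clone and its set's wild-type library, in 6 columns for 9245 entries. Columns of other samples numbered 0.

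Solute carrier genes were found by symbol, grouped by family number into 11 groups by what they carry. Members, lists and rules were chosen with earlier results of these data known. The design assumed levels for each library; with ratios, each wild type was set to 0. Limma 3.58.1 (R 4.3.3) was fitted to all entries with the experimental set as a block, which the labels name and every ratio was taken within. Residual degrees of freedom were 3 for the 4 groups and 4 for the additive model of both losses. Calls used a Benjamini-Hochberg adjusted p under 0.05. The fit and the site search were tested on simulated data. The share of planted changes that the fit recovered is not given here, so 0 calls do not show that no gene changed. Labels give 1 clone per genotype and set, so p-values measure the spread between sets.

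Named genes were those past a log2 of 1 in set 1, the 5 highest and 5 lowest of each loss by the weaker contrast, 17 of 20 genes fixed by role that were measured, and the matches that are no transporters; others were chosen after their values were seen. GENCODE 29 (GRCh38) matched 9226 entries, 9011 by RefSeq accession, and all 147 members. Some genes are not reported here.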

Additional observations from a re-analysis of the deposited data

How the results depend on the processing

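The counts of solute carrier genes past the mark in set 1 moved with the mark itself. At 1.5-fold in place of 2-fold they were 4 higher and 4 lower in the mir-141 knockout, 7 and 13 in the mir-200c knockout and 10 and 7 in the double knockout. With a log2 of 1 in both contrasts, the 1 gene lower on loss of mir-141 and the 1 gene higher on loss of mir-200c became 0 and 0. Taken from set 2 as listed, an alternative chosen after seeing the data, 1 was higher and 1 lower in the mir-141 knockout, 0 were higher in the mir-200c knockout, and 3 were higher and 0 lower in the double knockout. SLC2A4RG in the mir-141 knockout and SLC4A1AP in the double knockout, which encode no transporter, were among these set 2 counts. Median centring, leaving out the matches that are no transporters, and adding SLC35B to SLC35F were run on the main counts of set 1 only. Each of those set 1 counts stayed within 1.5 times. Centring changed the sign of 3 of 126 ratios of named genes in set 1, each within 0.01 of 0.

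Limma called 0 entries in each of the 5 comparisons without the replicate block, after median centring and with a robust prior. Leaving out 1 library gave 0 to 1 calls for the mir-141 knockout, 0 to 1 for the mir-200c knockout and 0 to 2 for the double knockout, 0 for both losses and 0 to 1 for the interaction; the lone clone is then assumed to vary like the other groups. Without the mir-200c clone of set 1 the call was SLC26A11 (−4.08), the 1 solute carrier gene among them. Without the mir-200c clone of set 2 it was HIST1H2BH (−4.41). Without the wild type of set 2, WDR20 was called in all 3 knockouts (4.87, 4.97 and 4.54) and FAM86B2 in the double knockout (3.17). Counting 8-base sites only, 12 members had sites of mir-141-3p only (8.16%), 7 of mir-200c-3p only (4.76%) and 1 of both (0.68%). Over all entries with a 3′ UTR these shares were 4.86%, 4.23% and 0.576%. Without depth, no interval for counting error can be given for any ratio.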
